A study of Mus musculus with 24 samples.

Results

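MC38-FUT9 derives from MC38, a colorectal cancer line of the mouse, and is the line in which FUT9 was the target of CRISPR-dCas-VPR gene overexpression. Here it is compared with its control MC38-MOCK#2, which went through the same technology with no target gene. The 6 samples of this comparison were 3 of MC38-FUT9 and 3 of MC38-MOCK#2, out of 24 samples and 8 lines sequenced in all. In both lines samples 1, 2 and 3 were taken at passages 6, 7 and 8. Both derive from strain C57BL/6, and both were grown in DMEM with 10% FCS under puromycin, as was every line of the series except MC38-WT. The 7 other lines used for reference are MC38-MOCK#2, MC38-MOCK#1, MC38-FUT4, wild-type MC38-WT and the knockout lines MC38-CMAS KO, MC38-COSMC KO and MC38-DKO. MC38-DKO has CMAS and COSMC as its target genes. Passages were 7, 8 and 9 in MC38-WT, 7, 8 and 7 in MC38-FUT4, and 4, 5 and 6 in MC38-MOCK#1 and each knockout line. Of the 52636 genes in the deposited table, 21480 had at most 4 zeros among the 6 samples and were tested. The labels do not say whether MC38-FUT9 is 1 clone or a mixed culture, nor which sequence the guide RNA targets, and 1 line stands for each condition, so that a property of the line and an effect of Fut9 cannot be told apart.

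Fut9 encodes an α1,3-fucosyltransferase that adds fucose to the N-acetylglucosamine of terminal N-acetyllactosamine (LacNAc) and so makes the Lewis X antigen, CD15, which is known from embryonic stem cells, neural progenitors and granulocytes. The donor is GDP-fucose, which is made in the cytosol and carried into the Golgi. In CRISPR-dCas-VPR a cleavage-dead Cas9 carries the VPR activation domains to a promoter chosen by a guide RNA, and the endogenous gene is transcribed. Fucosylated glycans in the colon are studied as ligands of lectins and for their link to stemness of tumor cells.

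The deposited values are read counts scaled by the authors with 1 factor per library and rounded, and are called normalized counts here. A difference is given as log2 of the normalized count plus 1, MC38-FUT9 minus MC38-MOCK#2, and a gene with a limma adjusted p below 0.05 (Benjamini-Hochberg over all genes tested) is called a DEG. Per library the values stand for an estimated 13530428 to 16230121 reads in MC38-FUT9 and 8178440 to 12071320 in MC38-MOCK#2, so that all samples of MC38-FUT9 were sequenced more deeply. The part of depth in the results was not tested. MC38-MOCK#2 sample 3 was the shallowest of the 6 and stood apart in interferon-stimulated genes, as described with those genes. Pearson's r across the genes tested was 0.976 to 0.985 between samples of 1 line and 0.953 to 0.965 between the lines. Of the epithelial genes, Epcam was listed at 0 in all 6 samples and Cdh1, which encodes E-cadherin, had 0 to 3 normalized counts, whereas Vim had 19787 to 27120, so that epithelial markers were at or near 0 in both lines. The immune cell genes Ptprc, Cd3e, Itgam and Adgre1 were at 0 to 2 normalized counts in each sample. All 13 mitochondrially encoded genes were listed at 0, so that a 0 in this table does not by itself show that a gene is silent. In RNA of a whole culture, fewer cells of a type and less RNA per cell cannot be told apart.

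The targeted gene was read first. Fut9 (ENSMUSG00000055373) lies on the minus strand of chromosome 4 of GRCm38, from 25609332 to 25800244. It had 0, 0 and 1 normalized counts in samples 1 to 3 of MC38-MOCK#2 and 955, 641 and 676 in MC38-FUT9. The groups were far apart, with a single read behind the 3 control samples. The log2 difference was 9.21 (standard error 0.34, limma adjusted p = 5.2e-05), and the ratio was 2119 with a 95% counting interval of 380.0 to 83714. In the lines other than MC38-FUT4, MC38-MOCK#2 and MC38-FUT9, Fut9 stayed between 0 and 7 in every sample. MC38-FUT4, which was made with the same technology for FUT4, had 209, 171 and 186 normalized counts of Fut9, while Fut4 itself was listed at 1, 0 and 1 there and at 0 in all samples of MC38-FUT9 and MC38-MOCK#2. Fut9 was higher in MC38-FUT9 than in MC38-FUT4 by 1.98 on the log2 scale (limma adjusted p = 0.00024).

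Among the 8 other genes within 1 Mb of Fut9 that were tested, only Ufl1 was called, and its difference was small. Ufl1, the E3 ligase of the ufmylation pathway, had 388, 406 and 401 normalized counts in MC38-MOCK#2 and 325, 357 and 319 in MC38-FUT9, a log2 difference of -0.26 with a limma adjusted p of 0.049. That call was lost under 10 other settings. The 7 others were between -0.67 and 0.40 and were not called. They include the nearest coding neighbours Manea, Gpr63 and Ndufaf4, with Manea at 232, 268 and 276 in MC38-MOCK#2 and 299, 275 and 323 in MC38-FUT9.

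Across all genes, 5166 of 21480 were DEGs, or 24.1%, of which 2596 were higher and 2570 lower in MC38-FUT9. This is 12.1% and 12% of the genes tested, the background against which the counts of each list are to be read. The DEGs include 4623 protein-coding genes. Decreases were the larger: the median log2 difference was 0.59 among DEGs that were higher and -0.85 among those that were lower. Beyond a log2 difference of 3 there were 87 genes on the higher and 250 on the lower side. When all samples were scaled to the same total, 1979 were higher and 3239 lower, which moves the share of higher genes among DEGs from 50.3% to 37.9%. The direction of small differences therefore rests on the scaling, whereas the median over genes averaging 10 or more moved only from 0.03 to -0.06. For 36.8% of the genes tested the 3 samples of the lines did not overlap. Without MC38-MOCK#2 sample 3, 5065 of 20933 genes were called (24.2%), and without sample 1 or sample 2 of MC38-FUT9 there were 3089 and 3183.

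**Figure D1:**
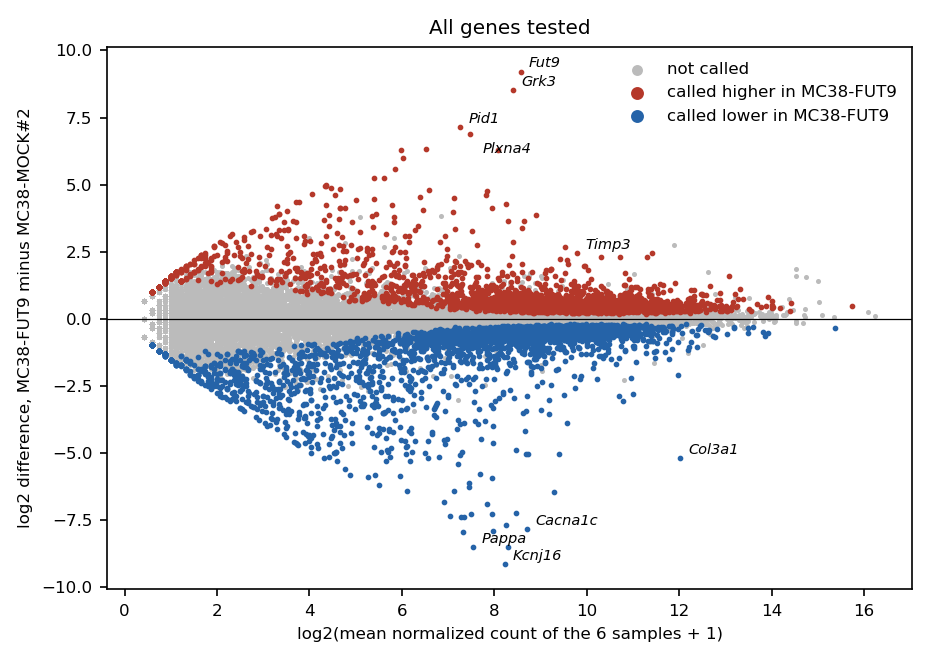
Log2 difference of each gene tested (MC38-FUT9 minus MC38-MOCK#2, log2 of normalized count plus 1, vertical axis) against log2 of its mean normalized count over the 6 samples plus 1 (horizontal axis). Grey points were not called, red points (2596) were called higher and blue points (2570) lower in MC38-FUT9, and Fut9 is the highest point at 9.21.

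The 10 largest increases among protein-coding genes with at least 50 normalized counts and no overlap between the lines were those of Fut9, Grk3, Pid1, Plxna4, Magea10, Ptpn20, Ston2, Thbd, Myo5b and Sox5. Grk3, a kinase that desensitizes G protein-coupled receptors, had 2, 1 and 0 normalized counts in MC38-MOCK#2 and 656, 608 and 760 in MC38-FUT9. No other line had more than 10. It rose by 8.53 on the log2 scale (standard error 0.40, limma adjusted p = 9.1e-05), with a ratio of 627 and a counting interval of 214 to 3040.2.

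Pid1, which encodes an adaptor of insulin signaling, had 0, 1 and 3 normalized counts in MC38-MOCK#2 and 223, 197 and 493 in MC38-FUT9. Plxna4, a receptor for semaphorins, had 2, 1 and 3 against 256, 344 and 451. Magea10, a member of the MAGE family of cancer-testis genes, had 0, 1 and 5 against 192, 184 and 166. These genes were thus near 0 in MC38-MOCK#2 and at 166 normalized counts or more in MC38-FUT9. They were not near 0 in every other line. Magea10 reached 125 in MC38-COSMC KO, Pid1 99 in MC38-CMAS KO and Plxna4 80 in MC38-FUT4. Thbd, which encodes thrombomodulin, had 1, 4 and 0 against 78, 69 and 94. The motor gene Myo5b had 1, 3 and 1 against 77, 110 and 96. The transcription factor gene Sox5 had 6, 6 and 5 against 150, 181 and 223. Sox5 reached 92 in MC38-WT and Thbd 53 in MC38-CMAS KO. All 10 were higher in the 3 samples of MC38-FUT9 than in any of the 21 other samples, and all 10 were also DEGs against MC38-FUT4. Since they were chosen for being high in MC38-FUT9, this is a description.

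The 10 largest decreases were those of Kcnj16, Sod3, Pappa, Kcnj2, Bmper, Cacna1c, Ptgs1, Mme, Ifi204 and Akr1c14, in which MC38-FUT9 was at or near 0. Kcnj16 and Kcnj2 encode inward rectifier potassium channels and are neighbours on chromosome 11. Kcnj16 had 407, 557 and 826 normalized counts in MC38-MOCK#2 and 0, 0 and 0 in MC38-FUT9, and so was at least 245-fold lower, taking 3 reads per library as the floor. Kcnj2 had 225, 335 and 387 against 1, 0 and 0. Both genes fell in each sample of MC38-FUT9. Pappa, a protease that cleaves IGF binding proteins, had 336, 307 and 469 against 0, 0 and 0 and was at least 152-fold lower. Cacna1c, the pore subunit of an L-type calcium channel, had 747, 799 and 954 against 3, 2 and 3, a log2 difference of -7.835 (standard error 0.19) with the lowest adjusted p of all protein-coding genes that fell (limma adjusted p = 2.4e-05).

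Sod3 encodes the extracellular superoxide dismutase, and it had 629, 640 and 617 normalized counts in MC38-MOCK#2 and 0, 4 and 0 in MC38-FUT9. Bmper, a regulator of BMP signaling, had 441, 370 and 695 against 0, 1 and 3. Ptgs1, the constitutive cyclooxygenase COX-1, had 506, 587 and 713 against 2, 3 and 1. None of these sets of samples overlap. Mme, which encodes the peptidase neprilysin, had 232, 268 and 465 against 1, 0 and 2. In MC38-FUT4 Mme was low as well, at 2, 2 and 5, and it was not a DEG between MC38-FUT9 and MC38-FUT4 (log2 difference -1.06, limma adjusted p = 0.185). The other 9 of these 10 genes were lower in MC38-FUT9 than in MC38-FUT4 too. Kcnj16, Pappa and Mme reached into the range of the 21 other samples, and the remaining 7 were below it. MC38-MOCK#2 was itself high: in all but Ifi204, each of its samples lay above the 18 samples of the other 6 lines. In those 18 samples Pappa reached at most 12 normalized counts, Kcnj16 78, Mme 46 and Akr1c14 43. The size of these differences therefore also reflects the high level in MC38-MOCK#2.

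**Figure D2:**
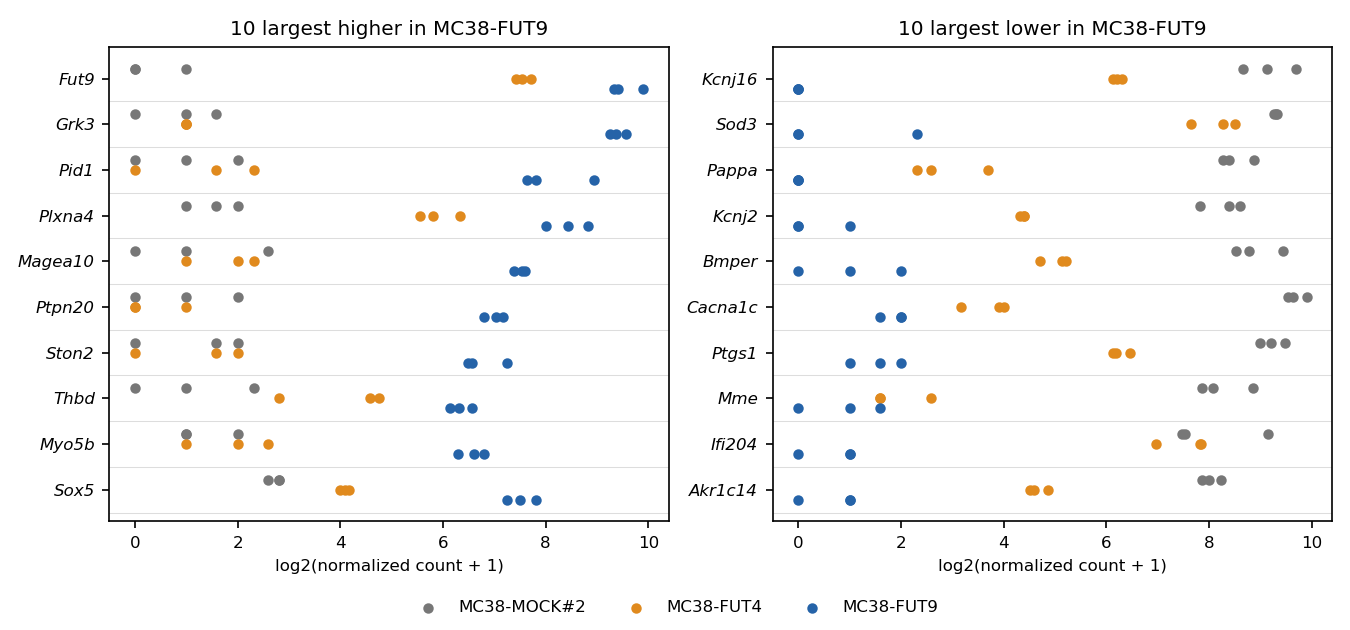
Log2 of normalized count plus 1 (horizontal axis) in each sample of MC38-MOCK#2 (grey), MC38-FUT4 (orange) and MC38-FUT9 (blue) for the 10 genes with the largest increase and the 10 with the largest decrease. Each point is 1 sample; the blue points of Grk3 correspond to 608 to 760 normalized counts, and those of Kcnj16 all lie at 0.

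By adjusted p, the genes that rose most reliably besides Fut9 were Cspg4, Pnma5, Adad2 and Dip2c. Cspg4, the proteoglycan NG2, had 30, 24 and 33 normalized counts in MC38-MOCK#2 and 545, 530 and 661 in MC38-FUT9. Pnma5 had 547, 552 and 600 against 2484, 3016 and 2921, and Adad2 45, 38 and 55 against 607, 542 and 597. Dip2c had the smallest difference of these, 1.72 on the log2 scale. On the lower side stood Dpysl3, with 1203, 1227 and 1500 against 32, 39 and 45, and Padi4, a peptidylarginine deiminase, with 874, 882 and 725 against 21, 29 and 23. Padi4 was similarly low in MC38-FUT4, at 26, 17 and 28, and the difference of MC38-FUT9 from that line was 0.06 (limma adjusted p = 0.91). Gm18336 completed these genes at 492, 514 and 457 against 6, 6 and 9.

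Interferon-stimulated genes were the list with the lowest median. Of 47 members, all of them tested, 37 were called lower and 0 higher in MC38-FUT9, against a background of 12% of genes called lower. The median log2 difference of the 47 was -3.41, against 0.01 over all genes tested, and all 47 were below 0. These genes are transcribed after interferon binds its receptors and the kinases JAK1 and TYK2 activate transcription factors, among them IRF9, that bind the interferon-stimulated response element in their promoters.

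Ifitm1, which restricts the entry of viruses, had 312, 293 and 607 normalized counts in MC38-MOCK#2 and 2, 15 and 6 in MC38-FUT9, a log2 difference of -5.78 (standard error 0.60, limma adjusted p = 0.0011). Ifi44 had 101, 68 and 701 against 2, 2 and 6. Oas1a, one of the oligoadenylate synthetases that activate RNase L, had 89, 120 and 448 against 5, 2 and 5. Its paralog Oas3 had 110, 79 and 716 against 5, 6 and 3. In each of these genes all samples of MC38-FUT9 lay below all of MC38-MOCK#2, and sample 3 of MC38-MOCK#2 was the highest. Isg15, a ubiquitin-like modifier, had 140, 113 and 896 against 19, 9 and 19. Ddx58, which encodes the RNA sensor RIG-I, had 674, 682 and 1764 against 108, 105 and 127. Irf7, a transcription factor of the pathway, had 41, 30 and 352 against 2, 1 and 10.

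The 10 members that were not called were Ddx60, Gbp7, Ifit3, Ifit3b, Mx1, Irf9, Dhx58, Bst2, Eif2ak2 and Ifit2. Ifit2 was nearest to 0, at 215, 267 and 367 in MC38-MOCK#2 and 223, 231 and 241 in MC38-FUT9. Eif2ak2, the kinase PKR, had 830, 834 and 1800 against 777, 734 and 824. The lines overlapped in Ifit2 and lay next to each other in Eif2ak2.

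The summed normalized count of the list was 14276, 12905 and 34544 in samples 1 to 3 of MC38-MOCK#2 and 5987, 5794 and 5784 in MC38-FUT9. Sample 3 of MC38-MOCK#2 thus had more than the other two, but also without it 36 of the 47 genes were called lower, with a background of 12%. Leaving out a sample of MC38-FUT9 had more effect: 16 genes were called without sample 1, 14 without sample 2 and 15 without sample 3. Over the 21 samples of the other lines the sum ranged from 8618 to 34544 with a median of 13908, so that the 3 samples of MC38-FUT9 lay below all of them. For 30 of the 47 genes, each sample of MC38-FUT9 lay below each of those 21 samples, against a background of 5.37%. Tested against the mean of the other 7 lines, 41 were lower and 1 higher (background 17.1% lower), and without sample 3 of MC38-MOCK#2 41 were lower too. Against MC38-FUT4, 39 were lower and 1 higher (background 15.8% lower).

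Some genes of interferon signaling outside the list were read after their values had been seen. The receptor genes Ifnar1 and Ifnar2 and the kinase gene Jak1 were not called, with log2 differences of 0.22, 0.03 and 0.17. Tyk2 fell from 183, 148 and 205 normalized counts to 70, 69 and 82 (limma adjusted p = 0.0020). Irf1, a transcription factor of the interferon gamma response, fell from 644, 630 and 861 to 316, 289 and 324 (limma adjusted p = 0.0014). Tmem173, which encodes the adaptor STING, fell from 74, 89 and 179 to 13, 8 and 16 (limma adjusted p = 0.0024).

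To show the regulatory sequence behind the name of this list, the promoters of the 3 called members with the lowest adjusted p among those holding the core of the interferon-stimulated response element are printed here. The letters GAAA, followed by any 2 bases and GAAA again, were searched on both strands of RefSeq windows of 300 bases on GRCm38.p6, from 250 bases before to 50 after a start site. Each sequence is 5′ to 3′ on the strand of its gene in lower case, and capitals mark a match, which reads TTTC at its ends where it lies on the other strand. Gbp2 is at chr3:142620413-142620712 (plus strand), Ddx58 at chr4:40239776-40240075 (minus strand) and Ifitm3 at chr7:141010695-141010994 (minus strand).
Gbp2: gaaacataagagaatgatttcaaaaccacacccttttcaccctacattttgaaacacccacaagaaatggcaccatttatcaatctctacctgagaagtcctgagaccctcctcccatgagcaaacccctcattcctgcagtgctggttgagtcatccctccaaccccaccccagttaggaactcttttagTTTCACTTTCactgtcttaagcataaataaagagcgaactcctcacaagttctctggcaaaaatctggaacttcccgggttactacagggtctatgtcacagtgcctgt
Ddx58: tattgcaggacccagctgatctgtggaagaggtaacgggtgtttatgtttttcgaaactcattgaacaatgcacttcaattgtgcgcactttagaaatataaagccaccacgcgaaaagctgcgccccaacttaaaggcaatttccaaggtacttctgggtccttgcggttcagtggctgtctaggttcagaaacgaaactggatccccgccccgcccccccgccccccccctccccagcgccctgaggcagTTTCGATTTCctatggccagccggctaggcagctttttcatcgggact
Ifitm3: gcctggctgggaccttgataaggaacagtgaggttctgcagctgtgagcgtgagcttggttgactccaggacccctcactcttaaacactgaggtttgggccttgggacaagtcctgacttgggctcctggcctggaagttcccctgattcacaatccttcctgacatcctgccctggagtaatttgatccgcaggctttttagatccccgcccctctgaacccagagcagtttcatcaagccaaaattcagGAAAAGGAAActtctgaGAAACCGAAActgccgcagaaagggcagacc
The match in Gbp2 begins 59 bases before the start site, and that in Ddx58 and the first of 2 in Ifitm3 begin 2 bases past it. Gbp2, a guanylate-binding GTPase, had 79, 73 and 171 normalized counts in MC38-MOCK#2 and 6, 7 and 6 in MC38-FUT9. Ifitm3 had 2452, 2455 and 5021 against 666, 654 and 683.

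Of the 47 interferon-stimulated genes, 35 had a window, and 22 of these, or 62.9%, held the letters, against 3.44% of all 32851 windows and 3.99% of all genes with a window. Of the 22 members with a match 16 were called lower, with a median log2 difference of -3.40, and of the 13 whose window lacks it 11 were called, with a median of -4.05. No test of that difference was made. Among all genes tested with a window, the letters stood in 6.27% of those called lower, in 3.12% of those called higher and in 3.24% of those not called. These matches are a description of letters in a window and not of binding.

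**Figure D3:**
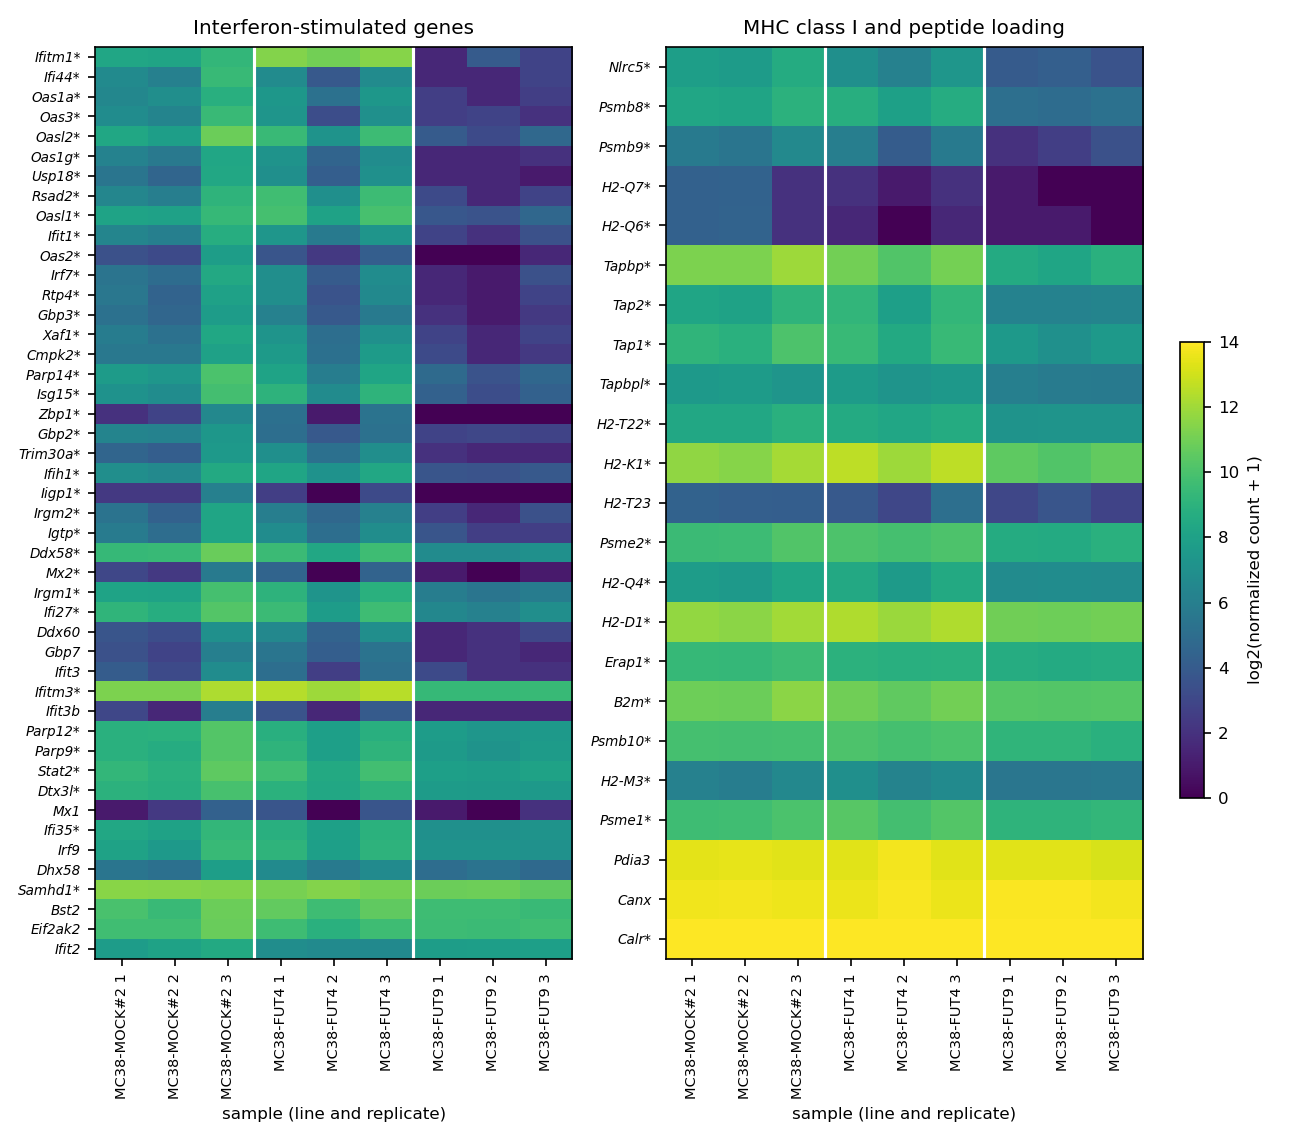
Log2 of normalized count plus 1 (color scale from 0 to 14) of 46 interferon-stimulated genes (left) and 23 genes of MHC class I and peptide loading (right) in the 3 samples each of MC38-MOCK#2, MC38-FUT4 and MC38-FUT9, ordered by log2 difference. An asterisk marks genes called between MC38-FUT9 and MC38-MOCK#2 (36 and 20); the columns of MC38-FUT9 are the darkest for most interferon-stimulated genes, and MC38-MOCK#2 sample 3 is the brightest of its line in most of them.

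MHC class I genes and the genes that load them with peptide were lower too. Of 23 tested, 19 were called lower and 1 higher (background 12.1% higher and 12% lower), with a median log2 difference of -1.10. Nlrc5, the transactivator of MHC class I genes, had 228, 205 and 397 normalized counts in MC38-MOCK#2 and 15, 18 and 11 in MC38-FUT9, a log2 difference of -4.11 (standard error 0.30, limma adjusted p = 0.00036). The immunoproteasome subunits Psmb8 and Psmb9 went from 306, 291 and 515 to 34, 30 and 37 and from 52, 43 and 95 to 3, 5 and 10. All of these fell well outside the spread between samples.

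The heavy chain genes of classical MHC class I fell less. H2-K1 had 3250, 2864 and 4471 against 1452, 1191 and 1620, and H2-D1 had 3385, 3010 and 4248 against 1965, 1893 and 2070. Their light chain B2m had 1889, 1847 and 3007 against 1258, 1217 and 1249. Each was lower in every sample of MC38-FUT9 than in any of MC38-MOCK#2. Tapbp, which encodes tapasin, the editor of peptide loading, fell from 2400, 2418 and 3958 to 378, 304 and 477, and the peptide transporter gene Tap1 from 570, 468 and 1109 to 184, 130 and 190. The chaperone genes Pdia3 and Canx were not called, and Calr was the 1 member that rose, from 19737, 19296 and 19441 to 25565, 23894 and 21931. H2-Q7 and H2-Q6 are near-identical genes whose reads the counting may have divided, and their values are uncertain. For 17 of the 23 genes MC38-FUT9 was below all 21 other samples, against a background of 5.37%. Without MC38-MOCK#2 sample 3, 18 were called lower.

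Among genes of cholesterol and fatty acid synthesis 16 of 27 were called lower and 1 higher (background 12.1% higher and 12% lower), with a median log2 difference of -0.48. Dhcr7, the last step of cholesterol synthesis, had 1891, 1950 and 2056 normalized counts in MC38-MOCK#2 and 832, 786 and 902 in MC38-FUT9, a log2 difference of -1.23 (standard error 0.072, limma adjusted p = 0.00022). Fdft1, which makes squalene, had 1735, 2029 and 1997 against 830, 901 and 904. Mvd of the mevalonate pathway had 1560, 1789 and 1658 against 728, 756 and 783. Samples of the lines did not overlap in any of these enzymes. The fatty acid synthase gene Fasn was not called, at 0.02, and Elovl6, a fatty acid elongase, was the 1 member that rose. Of these 27, 5 passed when an absolute log2 difference above 1 was also asked for, and 10 were called lower without MC38-FUT9 sample 1.

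Around Fut9 itself, the other fucosyltransferase genes moved little. Of 10 in the list 8 were tested and Fut9 alone was called, while Fut1 and Fut4 were listed at 0 in all 6 samples. Fut8, which adds core fucose to N-glycans, had 168, 201 and 283 normalized counts in MC38-MOCK#2 and 221, 200 and 224 in MC38-FUT9. Fut10 had 302, 323 and 392 against 382, 421 and 420, and Fut11 91, 94 and 109 against 68, 76 and 78. The genes of protein O-fucosylation, Pofut1 and Pofut2, had log2 differences of -0.09 and 0.06. Fut2 and Fut7 were at 0 to 4 normalized counts in every sample.

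Among genes of GDP-fucose supply and fucose removal, 3 of 7 tested were called lower and 0 higher (background 12.1% higher and 12% lower). All 3 differences were below 1 in size. Gmds, which converts GDP-mannose in the first step of the de novo route, had 486, 539 and 488 against 378, 448 and 392. Slc35c1, the Golgi transporter of GDP-fucose, had 503, 497 and 429 against 391, 351 and 385. The lysosomal fucosidase gene Fuca1 had 433, 496 and 523 against 321, 292 and 311. The calls of Gmds and Slc35c1 had limma adjusted p of 0.046 and 0.036 and were lost under several other settings. Fuk and Tsta3, of the salvage and de novo routes, were not called.

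Larger differences stood among the genes that build and cap LacNAc chains, the acceptors of FUT9. Here 6 of 21 tested were called higher and 4 lower (background 12.1% higher and 12% lower). St3gal6, a sialyltransferase that caps LacNAc with α2,3-linked sialic acid, had 191, 190 and 183 normalized counts in MC38-MOCK#2 and 9, 16 and 5 in MC38-FUT9, a log2 difference of -4.23 (standard error 0.36, limma adjusted p = 0.00062). St3gal4, which catalyses the same linkage, was higher, with 384, 426 and 479 against 627, 747 and 899. The sialyltransferases therefore went in opposite directions. B3gnt3, which extends chains with N-acetylglucosamine, fell from 202, 199 and 269 to 25, 26 and 35. Gcnt2, the enzyme of I-branching, fell from 63, 68 and 72 to 10, 14 and 13. Mgat4b, an N-glycan branching enzyme, rose from 851, 918 and 952 to 1933, 1905 and 1772. The galactosyltransferase gene B4galt1 was not called, at 0.27. St3gal6, B3gnt3 and Gcnt2 were also lower than in MC38-FUT4 and lower than the mean of the other 7 lines, with log2 differences from the latter of -3.89, -3.40 and -2.84.

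Pluripotency and stem cell genes did not move as 1 block. Of 24 pluripotency factors, 10 had at most 4 zeros among the 6 samples and were tested. Of these, 4 were called higher and 3 lower (background 12.1% higher and 12% lower). Pou5f1 and Nanog were at 0 or 1 in each sample. Sox2 rose from 226, 231 and 205 normalized counts to 573, 613 and 702 and Myc from 1310, 1349 and 1182 to 2532, 3179 and 2444. Dppa2 rose from 24, 13 and 7 to 115, 115 and 123, while Klf2 fell from 708, 1277 and 1137 to 315, 278 and 243. Dppa2 was at 135, 131 and 159 in MC38-FUT4, and the difference of MC38-FUT9 from that line was -0.26 (limma adjusted p = 0.12). Over the 18 samples of the other 6 lines Dppa2 ranged from 81 to 214, so that MC38-MOCK#2 was low and MC38-FUT9 lay within that range. Of the 10 factors tested, MC38-FUT9 lay above all 21 other samples in 0 and below all of them in 1.

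Of 19 intestinal and cancer stem cell markers tested, 5 were called higher and 2 lower, the latter near background (12.1% higher and 12% lower). Sox9, a transcription factor of crypt stem cells and Paneth cells, rose from 182, 215 and 332 to 712, 662 and 1211. Sox4 rose from 22, 9 and 21 to 123, 110 and 134. In the lines other than MC38-MOCK#2 and MC38-FUT9, Sox4 ranged from 119 to 270. For Sox4, MC38-MOCK#2 was thus low and MC38-FUT9 did not exceed the other lines. Sox9 reached 909 in MC38-WT. Of the 19 markers, MC38-FUT9 lay above all 21 other samples in 0 and below all of them in 1. Ephb2, a receptor that positions crypt cells, fell from 81, 98 and 213 to 5, 1 and 3. Lgr5 was at 0 or 1. Cd44 was not called, at 0.21. Of 8 genes of intestinal differentiation that were tested 0 were called by limma, and all 8 were at or below 11 normalized counts in each sample.

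Wnt target genes were called higher in 5 of 13 cases and lower in 1 (background 12.1% higher and 12% lower). Lef1 and Tcf7, the transcription factors that bind β-catenin, rose from 37, 49 and 35 to 98, 122 and 121 and from 101, 83 and 89 to 225, 217 and 212. Ccnd1, which encodes cyclin D1, rose from 3119, 2937 and 3449 to 6297, 6709 and 6900. Dkk2, a secreted modulator of Wnt receptors, went from 1, 0 and 0 to 35, 30 and 51, a ratio of 107 with a counting interval of 18.9 to 4259.8. The ubiquitin ligase gene Rnf43 fell from 20, 21 and 19 to 2, 0 and 1, and Axin2, a common readout of the pathway, had 15, 14 and 12 against 6, 14 and 11 and was not called. For 5 of the 13 genes MC38-FUT9 lay above all 21 other samples, against a background of 6.28%.

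In the Notch pathway 4 of 19 genes were called higher and 5 lower (background 12.1% higher and 12% lower). The fringe gene Mfng, which extends O-fucose on Notch, fell from 97, 69 and 61 to 7, 10 and 6, and the target genes Hey1 and Hes1 fell from 31, 43 and 28 to 2, 1 and 2 and from 258, 241 and 253 to 154, 131 and 162. Notch1 fell from 791, 610 and 884 to 474, 358 and 531. Maml3 and Dll1 rose, by 1.32 and 2.21 on the log2 scale, and both calls were lost under several other settings.

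Genes of the extracellular matrix included some of the largest differences in both directions. Of 30 tested, 6 were called higher and 6 lower (background 12.1% higher and 12% lower). Thbs1, which encodes the matricellular thrombospondin-1, had 345, 384 and 753 normalized counts in MC38-MOCK#2, 1256, 969 and 1225 in MC38-FUT4 and 2, 2 and 2 in MC38-FUT9. Its log2 difference from MC38-MOCK#2 was -7.28 (standard error 0.31, limma adjusted p = 8.9e-05). The fibrillar collagen gene Col3a1 fell from 5601, 5020 and 13474 to 166, 99 and 470. Col5a2 fell from 37, 65 and 164 to 0 in all samples, at least 36.5-fold. It was at 43, 21 and 22 in MC38-FUT4 but only at 0 to 6 in every sample of all other lines. These 2 collagen genes are neighbours on chromosome 1. Against the mean of the other 7 lines, however, Col3a1 was not called (log2 difference -0.88, limma adjusted p = 0.057).

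Timp3 and Sparc rose. Timp3, an inhibitor of metalloproteinases, had 225, 249 and 359 against 1338, 1535 and 1570, and Sparc, a collagen-binding matricellular protein, 356, 361 and 596 against 1912, 2054 and 2309. Col6a3 rose from 263, 128 and 144 to 594, 392 and 799. Among 17 metalloproteinase and plasminogen genes tested, 3 were called higher and 3 lower (background 12.1% higher and 12% lower). Plaur, the urokinase receptor, rose from 605, 608 and 483 to 990, 1165 and 1198, and the stromelysin gene Mmp3 fell from 29, 24 and 84 to 0, 0 and 1. Of 15 integrin genes 2 were called higher and 2 lower, near the background of 12.1% and 12%, so that the count is no result about integrins. Itgb4, the partner of laminin-binding α6, fell from 396, 425 and 499 to 52, 31 and 62.

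Of 16 regulators and markers of epithelial-mesenchymal transition, 3 were called higher and 3 lower, with a background of 12.1% and 12%. Prrx1 and Zeb2 rose, from 398, 454 and 548 to 1135, 1216 and 1344 and from 418, 453 and 697 to 1177, 1049 and 1247. Prrx1 reached 1182 in MC38-WT. Snai2 fell from 62, 67 and 65 to 8, 13 and 10 and Twist2 from 2813, 2823 and 1666 to 771, 929 and 890. Esrp1, an epithelial splicing factor, fell as well, from 20, 23 and 16 to 3, 5 and 2. Vim and Snai1 were not called.

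The list of TGF-β and BMP genes holds ligands, antagonists, receptors, Smad genes and target genes. Of 28 tested, 7 were called higher and 6 lower (background 12.1% higher and 12% lower). Inhba, the subunit of activin A, rose from 29, 17 and 27 normalized counts to 325, 318 and 754, a log2 difference of 4.11 (standard error 0.37, limma adjusted p = 0.00070). The BMP antagonist gene Grem1 rose from 636, 901 and 1044 to 3615, 4676 and 4390. In MC38-FUT4 Grem1 was at 235, 255 and 230, and no sample outside MC38-FUT9 exceeded 1766. The BMP target genes Id1 and Id3 fell, from 1666, 1841 and 968 to 757, 899 and 532 and from 1964, 2213 and 1110 to 708, 1021 and 382.

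Secreted and surface molecules of the immune system went both ways. Of 22 cytokine and chemokine genes tested, 5 were called higher and 6 lower (background 12.1% higher and 12% lower). Cx3cl1, a chemokine for NK and T cells, fell from 189, 189 and 345 to 6, 8 and 16, and Il15, the cytokine that maintains NK cells, from 20, 25 and 35 to 2, 2 and 0. Csf1, the growth factor of macrophages, rose from 1515, 1335 and 1616 to 2172, 2687 and 2000. Of 16 checkpoint and NK ligand genes, 2 were called higher and 5 lower, of which the former is near the background of 12.1% and the latter is to be read against 12%. Lgals9, which encodes galectin-9, fell from 298, 339 and 813 to 15, 15 and 20, and Cd274, which encodes PD-L1, from 95, 89 and 141 to 55, 34 and 34. The galectin-3 gene Lgals3 rose from 3618, 4027 and 4047 to 8237, 9721 and 9234, and the NKG2D ligand gene Ulbp1 from 138, 119 and 213 to 445, 409 and 534. Ulbp1 was at 221 to 500 in the 18 samples of the other 6 lines, all above MC38-MOCK#2.

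Of 15 genes of NF-κB subunits and feedback, 4 were called higher and 3 lower (background 12.1% higher and 12% lower). Vcam1 rose from 462, 400 and 547 to 1058, 1150 and 1193, while Birc3, an inhibitor of apoptosis, fell from 56, 61 and 107 to 17, 14 and 16. In MAPK feedback genes, 7 of 22 were called higher and 3 lower, against the same background. Spred3 rose from 114, 148 and 213 to 492, 406 and 616. Dusp1, a phosphatase of MAP kinases and an immediate early gene, fell from 707, 1058 and 1473 to 108, 99 and 62. Of 19 immediate early and heat shock genes, 7 were called lower and 1 higher, again with this background. Fos had 1658, 3392 and 5883 against 613, 460 and 334, so that the control samples themselves differed widely, and Egr1 with 2717, 6446 and 11335 against 1988, 1862 and 3830 was not called.

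**Figure D4:**
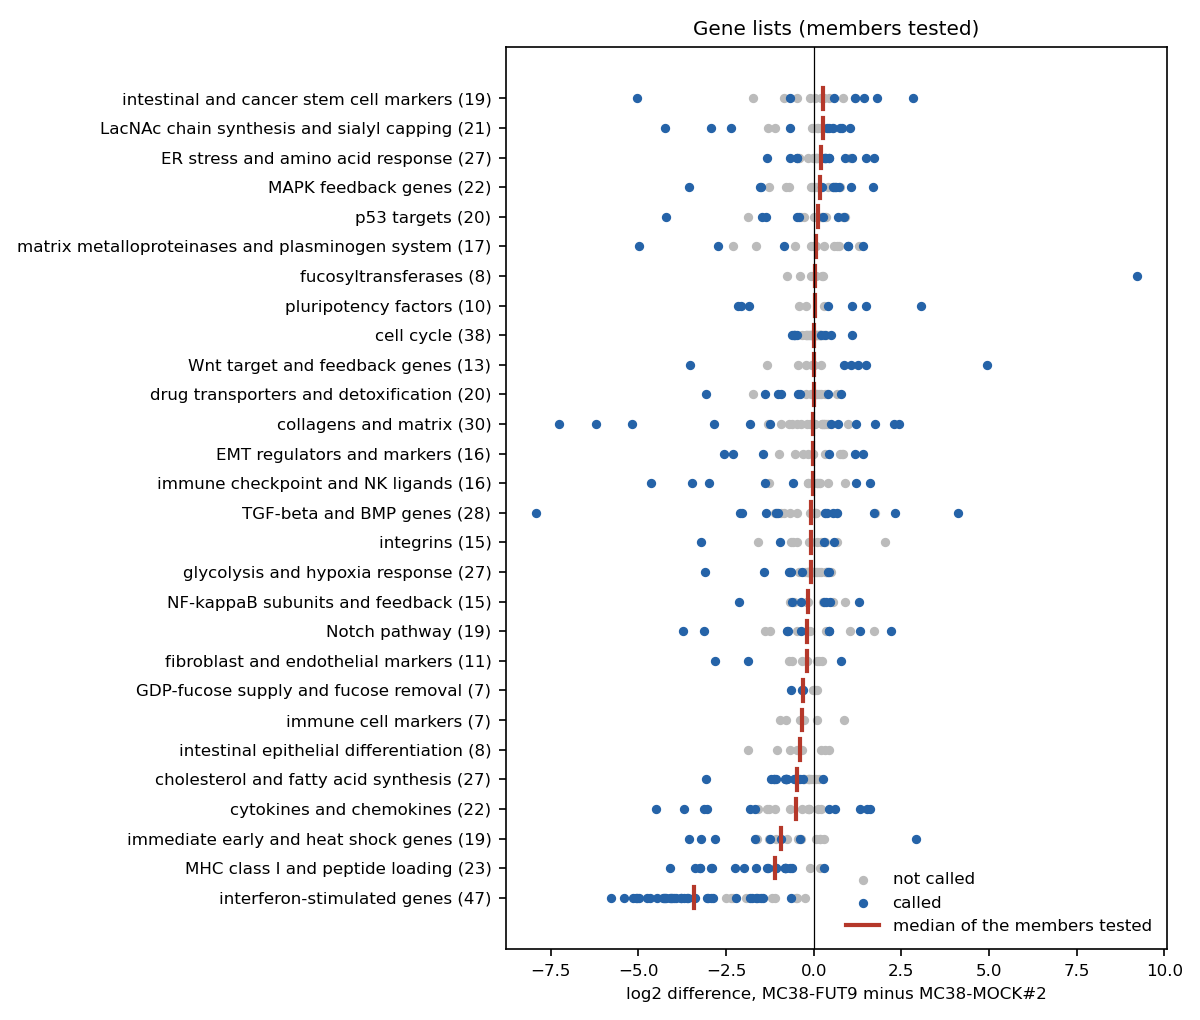
Log2 difference (MC38-FUT9 minus MC38-MOCK#2, horizontal axis) of each tested member of 28 gene lists, with the number tested in parentheses. Blue points were called, grey points were not, and red bars mark the median of the members tested; the medians of interferon-stimulated genes (-3.41) and MHC class I genes (-1.10) are the lowest.

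Of 38 cell cycle genes 4 were called higher and 5 lower, with a median log2 difference of 0.01. Both counts are near the background of 12.1% and 12% and are no result about cell cycle genes. Ccne1, which encodes cyclin E1, rose from 326, 330 and 383 to 727, 814 and 693, and Pcna fell from 6535, 7136 and 5831 to 4114, 4411 and 4207. Mki67 was not called, at 0.16. Of 20 p53 target genes, 3 were called higher and 5 lower (background 12.1% higher and 12% lower). Btg2 fell from 48, 112 and 247 to 4, 3 and 10, and Cdkn1a, the cell cycle inhibitor p21, was not called, at -0.27. In glycolysis and the response to hypoxia 2 of 27 were called higher and 6 lower, against the same background. The kinase gene Pfkp fell from 1596, 1644 and 1624 to 1046, 946 and 1005, and Ldha rose from 14231, 13959 and 14549 to 18230, 20239 and 17773.

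Of 27 genes of ER stress and the amino acid response, 9 were called higher and 4 lower (background 12.1% higher and 12% lower). Atf5, a transcription factor of the integrated stress response, rose from 844, 741 and 968 to 2490, 2834 and 3018. Slc7a11, the cystine transporter, rose from 487, 535 and 705 to 1394, 1569 and 1887, and Shmt2 of mitochondrial one-carbon metabolism from 7133, 6731 and 5764 to 13982, 14710 and 13149. Ddit4, an inhibitor of mTORC1, fell from 1589, 1749 and 2483 to 787, 623 and 860. In the 18 samples of the other 6 lines Slc7a11 ranged from 561 to 2283 and Ddit4 from 519 to 1862. For these 2 genes MC38-FUT9 lay within the range. Among 20 drug transporter and detoxification genes 2 were called higher and 6 lower, against the same background. The quinone reductase gene Nqo1 fell from 2524, 3475 and 3515 to 331, 400 and 390, and Abcc1 rose from 1602, 1432 and 1482 to 2596, 2706 and 2500.

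Markers of other cell types were compared as well. Of 7 immune cell markers tested 0 were called by limma, and the summed normalized count of the list was 292 to 325 in MC38-FUT9 and 334 to 409 in MC38-MOCK#2, most of it from Cd14. Of 11 fibroblast and endothelial markers tested, Pdgfra was called higher, at 573, 535 and 816 against 990, 910 and 1427, and Vwf and Fap lower. Vwf had 9, 13 and 29 in MC38-MOCK#2, 2, 1 and 1 in MC38-FUT9 and 0 to 3 in the 18 samples of the other 6 lines. The call of Pdgfra was lost under 9 other settings and that of Fap under 7. The sum of that list was 1641 to 2606 in MC38-FUT9 and 1258 to 2174 in MC38-MOCK#2. The defining genes Thy1 and Tek were listed at 0 in all 6 samples.

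MC38-FUT9 also stood apart from the rest of the series. In the 7 comparisons of MC38-FUT9 with another line 2951 to 7210 genes were called, and in the 21 pairs of other lines 20 to 3509. Against MC38-FUT4, 6922 of 21961 genes were called (31.5%), and against the mean of the other 7 lines 7374 of 21480 (34.3%). The comparison of MC38-FUT4 with MC38-MOCK#2 called 3509 of 21734 (16.1%, with 8.1% higher and 8.04% lower) and shares its control samples with the main comparison. It called 1621 without MC38-FUT4 sample 1, 1645 without sample 3 and 1911 without MC38-MOCK#2 sample 2. In 2501 genes, or 11.6%, all 3 samples of MC38-FUT9 lay outside the range of the 21 others, with 1348 above and 1153 below.

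The 5 genes that stood highest above the other lines were Fut9, Grk3, Ptpn20, Pid1 and Plcb1. Plcb1, a phospholipase C, had 8, 13 and 39 normalized counts in MC38-MOCK#2, at most 171 in any of the 21 other samples and 321, 385 and 586 in MC38-FUT9. The 5 that stood lowest were Ifi204, Ptn, Blnk, Tex101 and Ifitm1. Ifi204, an interferon-inducible gene of the p200 family, had 1, 1 and 0 in MC38-FUT9 and at least 27 in every other sample. Ptn, which encodes the growth factor pleiotrophin, had 2, 5 and 2 against at least 66. The adaptor gene Blnk had 9, 2 and 4 against at least 90, and Tex101, a surface protein known from germ cells, had 24, 18 and 16 against at least 207. Against the mean of the other 7 lines, Tex101 had a log2 difference of -5.78 (limma adjusted p = 1.4e-17).

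Along the genome, the differences were unevenly spread. Among genes with a mean of at least 10, the median log2 difference was 0.29 over the 1014 genes of chromosome 7, where 38.0% were called higher and 6.51% lower. On chromosome 5 the median was 0.20 over 875 genes. On chromosome 2 it was -0.21 over 1097 genes, with 30.9% called lower and 5.65% higher, and on chromosome 11 it was -0.14 over 1033. Relative to the mean of MC38-MOCK#2, the median of chromosome 7 was 0.29, 0.30 and 0.28 in the samples of MC38-FUT9, 0.02, -0.01 and -0.01 in those of MC38-MOCK#2, and -0.11 to 0.01 in the 18 samples of the other 6 lines. On chromosome 2 the samples of MC38-FUT9 were at -0.20, -0.19 and -0.23, close to the lowest of those 18 samples, at -0.19. For 16 of 20 chromosomes the samples of the lines did not overlap. An exact permutation test of 3 samples against 3 cannot go below p = 0.1, and none was run.

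The bins of chromosome 14 differed in sign. In bins of 20 Mb with at least 20 genes, the median was 0.23 from 0 to 20 Mb, 0.40 from 20 to 40 Mb and 0.27 from 40 to 60 Mb. From 60 to 80 Mb it was -0.47, with 56.6% of 106 genes called lower and 3.77% higher, and from 100 to 120 Mb it was -0.34. The change of sign thus falls near 60 Mb. Medians of the bins from 20 to 40 Mb and from 60 to 80 Mb also varied among the 18 samples of the other 6 lines, from -0.11 to 0.39 and from -0.29 to 0.13. On chromosome 10 the bins from 100 to 120 Mb and from 120 to 140 Mb stood at 0.26 and 0.36, whereas the 5 before were between 0.02 and 0.05. In the 18 samples of the other 6 lines these 2 bins ranged from -0.35 to 0.28 and from -0.24 to 0.25. MC38-FUT9 thus lay within the first range and above the second. The largest bin median was 0.50, on chromosome 7 from 80 to 100 Mb. In all, 14 of 138 bins were above 0.25 and 8 below -0.25. After the median of each chromosome was subtracted, 2203 genes were called higher and 2460 lower, and of interferon-stimulated genes 37 were still lower.

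**Figure D5:**
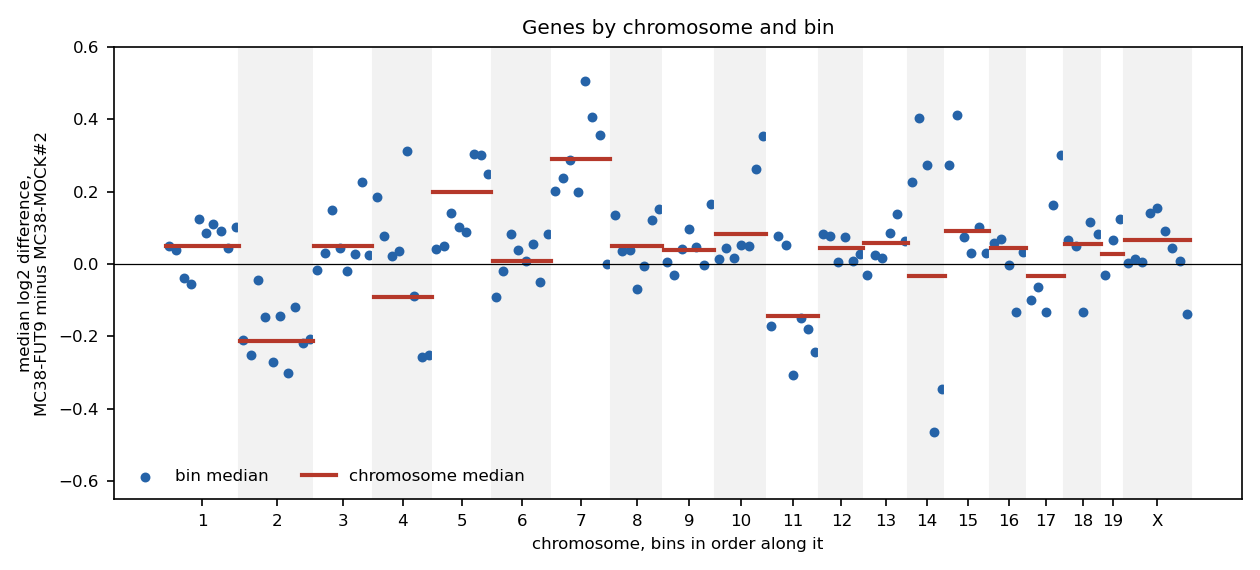
Median log2 difference (MC38-FUT9 minus MC38-MOCK#2, vertical axis) of genes averaging 10 or more normalized counts, by bin of 20 Mb (blue points, in order along each chromosome) and by chromosome (red bars). Chromosome 7 is the highest (0.29) and chromosome 2 the lowest (-0.21), and the bins of chromosome 14 change sign along its length.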

How the data were processed

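RNA of MC38 cells was sequenced from polyadenylated transcripts as single reads of 50 bases. Per the labels and the study's methods, the authors trimmed reads with Sickle 1.33, aligned them with HISAT2 2.0.4 to GRCm38 with the Ensembl 90 annotation, counted them per gene with featureCounts of Subread 1.5.0-p3 without reads that overlap several genes, and normalized with edgeR 3.18.1. The strand setting of the counting was not given in the sources used here, so that overlapping and antisense genes are uncertain. The deposited values are a score, that is counts divided by 1 factor per library and rounded by the authors to whole numbers, and were therefore not tested with a count model.

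From these values log2(value + 1) was computed and compared with limma 3.58.1 (lmFit and eBayes with a trend, two-sided, R 4.3.3), leaving out genes with more than 4 zeros among 6 samples. Figures and summaries used Python 3.11.15. A log2 difference on this scale understates the change of low genes. The reads behind each library were estimated from the steps between low values. They ranged from 6759051 to 16230121 over the 24 samples, and a first form of the estimate that failed on simulated data was replaced. Intervals of ratios (95%, exact) and the floor of 3 reads cover counting error only. On simulated data of this comparison limma recovered 154 of 200 genes changed 2-fold among 20846, with 2 false calls. Symbols and coordinates are those of GENCODE M21 (52403 IDs with a symbol), and promoters those of RefSeq GRCm38.p6.

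The members, gene lists and tests were chosen with earlier results of these data known. Genes were named by rule: Fut9, the fucosyltransferases and genes within 1 Mb of Fut9, the 10 largest differences in either direction among protein-coding DEGs with a mean of at least 50 in the higher line and no overlap, the 5 lowest adjusted p in either direction, the 4 largest called members of each list, and the 5 genes farthest beyond the other 7 lines in either direction. Other list members and the genes of interferon signaling were named after their values were seen. The samples of a line are separate harvests at separate time points per the study's methods, with the passages the labels give, so that p-values measure the spread between harvests of 1 line and not between independently made lines. Values of some genes are not reported here, although these genes are counted in their lists.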

Additional observations from a re-analysis of the deposited data

Results flagged for a closer look

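Fut9 RNA was present in MC38-FUT4, a line whose labelled target is FUT4. Its mean normalized count was 188.67 in the 3 samples of that line, against at most 1 in MC38-MOCK#2, which marked it as a signal in samples outside the main comparison. The reason was not tested.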

How the results depend on the processing

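The main limits are 1 line per condition and 3 samples of each. Leaving out 1 sample gave 3089 to 5065 DEGs of MC38-FUT9 against MC38-MOCK#2 (1620 to 2557 higher, 1469 to 2508 lower), 14 to 36 interferon-stimulated genes and 10 to 16 cholesterol genes called lower, 13 to 18 MHC class I genes, and 1621 to 3112 DEGs of MC38-FUT4 against MC38-MOCK#2. Without a trend in limma, 3430 DEGs remained in number, 1638 of them higher, and 2270 for MC38-FUT4 against MC38-MOCK#2. With an absolute log2 difference above 1 asked for as well, there were 1822 DEGs (706 higher, 1116 lower), 5 cholesterol genes, 2493 DEGs against MC38-FUT4, 1447 of MC38-FUT4 against MC38-MOCK#2 and 2019 against the other 7 lines. With the replicate block, MC38-FUT4 against MC38-MOCK#2 gave 1756, and MC38-FUT9 against MC38-MOCK#2 gave 4963, of which 4256 were shared with the fit without it. Same-numbered samples of MC38-FUT9 and MC38-MOCK#2 correlated in their deviations from the line means at r = 0.091, 0.22 and 0.21, and each correlated best with its own number. Same-numbered samples of these lines have the same passage number in the labels, but a shared day or batch is not given in the sources used here, so the fit without the block was kept. The cause of these shifts was not tested.

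Of 146 named genes 128 were called, 96 of them under every alternative run for them, and 0 called genes changed direction. Among genes not called, direction changed in 7. With the same total in every sample Fut8 was at -0.069, Gm11896 at -0.0046 and Pofut2 at -0.022. With chromosome medians removed Fut2 was at -0.045, Fut8 at -0.018, Pofut1 at 0.12 and Pofut2 at -0.014. Leaving out 1 sample gave values of -0.041 to 0.53 for C230012O17Rik, -0.12 to 0.75 for Lgals4, -0.15 to 0.22 for Fut8, -0.37 to 0.42 for Gm11896 and -0.023 to 0.19 for Pofut2.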
